A study of Mus musculus with 40 samples.

Results

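The genes described here make cholesterol, sense it, move it inside the cell and export it. They were named by function as 31 members, of which 28 had a probe set naming a single gene among the 18193 genes measured. Acat2, Nr1h2 and Soat1 had none and are not reported. The measured members were 17 of 18 listed synthesis enzymes, all 4 regulators of sterol regulatory element-binding proteins (SREBPs), all 3 transport genes, 3 of 4 genes of efflux and liver X receptors (LXRs), and Cyp46a1. The mRNA of 40 mouse samples was hybridized to Affymetrix mouse genome arrays, 1 array per sample. Control tissue was the dorsal cortex of 5 mice, 3 of them hGFAP-cre+;p53floxE2-10/+ (arrays 30 to 32) and 2 of them hGFAP-cre-;p53floxE5-6/floxE5-6 (arrays 33 and 34). The 11 p53 null CKO gliomas arose in hGFAP-cre+;p53floxE2-10/floxE2-10 mice, and the 11 p53 R172H CKO gliomas in hGFAP-cre+;p53LSLR172H/floxE2-10 mice, whose cells carry a missense allele beside a deleted one. From mice of the latter genotype came 11 lines of end-stage gliomas and 2 lines of MRI-guided early biopsies, all grown without serum, as spheres, in medium with growth factors and the supplements N2 and B27. Every genotype therefore carried at least 1 conditional p53 allele, and in the gliomas and lines Cre was driven by the human GFAP promoter in neural cells. Ages are not in the labels, and the p-values rest on the variation among the samples at hand. The study describes the end-stage lines and the p53 R172H CKO gliomas as coming from the same tumors, but the labels do not say which line belongs to which tumor. Lines and gliomas were therefore compared as unpaired groups, although they share animals. A glioma sample holds stroma and normal brain as well as tumor cells, and in such bulk tissue fewer cells of a type and less RNA per cell cannot be told apart.

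In mammalian cells cholesterol is built from acetyl units through the mevalonate pathway, then through squalene and lanosterol. When membrane sterol is low, SCAP escorts SREBP-2, the product of Srebf2, to the Golgi for cleavage, and the released factor switches on the synthesis genes and its own gene. When sterol is high, INSIG proteins hold the complex in the endoplasmic reticulum, while oxysterols activate LXRs, which induce the exporters ABCA1 and ABCG1. The brain makes its own cholesterol because lipoproteins of the blood do not cross the blood-brain barrier, and neurons dispose of it through the hydroxylase CYP46A1.

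The arrays of a group resembled each other, with pairwise correlations across probe sets of 0.978 to 0.992 among cortices, 0.894 to 0.981 among p53 null CKO gliomas, 0.853 to 0.974 among R172H ones, and 0.936 to 0.975 among end-stage lines. Against 10 listed markers of mature neurons, with a mean log2 signal of 11.33 to 12.05 in cortex, most gliomas were low, but the p53 null CKO gliomas of arrays 38 (11.12) and 45 (11.16) and the p53 R172H CKO glioma of array 58 (11.63) were near cortex. In the end-stage lines the same markers averaged 4.61 to 6.35. Markers of microglia and macrophages (12 genes) averaged 7.69 to 8.37 in cortex, 8.37 to 10.59 in p53 R172H CKO gliomas and 4.06 to 4.77 in end-stage lines, below the array medians of 5.24 to 5.47, a range in which low expression and no expression look alike.

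The end-stage lines expressed the synthesis pathway at higher levels than the p53 R172H CKO gliomas, from the first enzymes of the mevalonate pathway to the last steps. Of 17 measured enzymes 15 were higher in the lines and none was lower, with a median log2 difference of 1.22 over the enzymes against 0.05 over all genes. Over all 28 members, 19 were higher and 1 was lower at an adjusted p under 0.05 in limma, beside 7.24% of all genes higher and 6.43% lower. In no member did the lines and the gliomas separate completely, as 0.0934% of all genes did upward and 0.901% downward. In the lines all 12 microglia markers and all 8 endothelial markers were lower than in the gliomas, and 0 of 11 cell cycle genes differed (median 0.27). The part of the lost stroma in the higher signals was not tested.

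**Figure D1:**
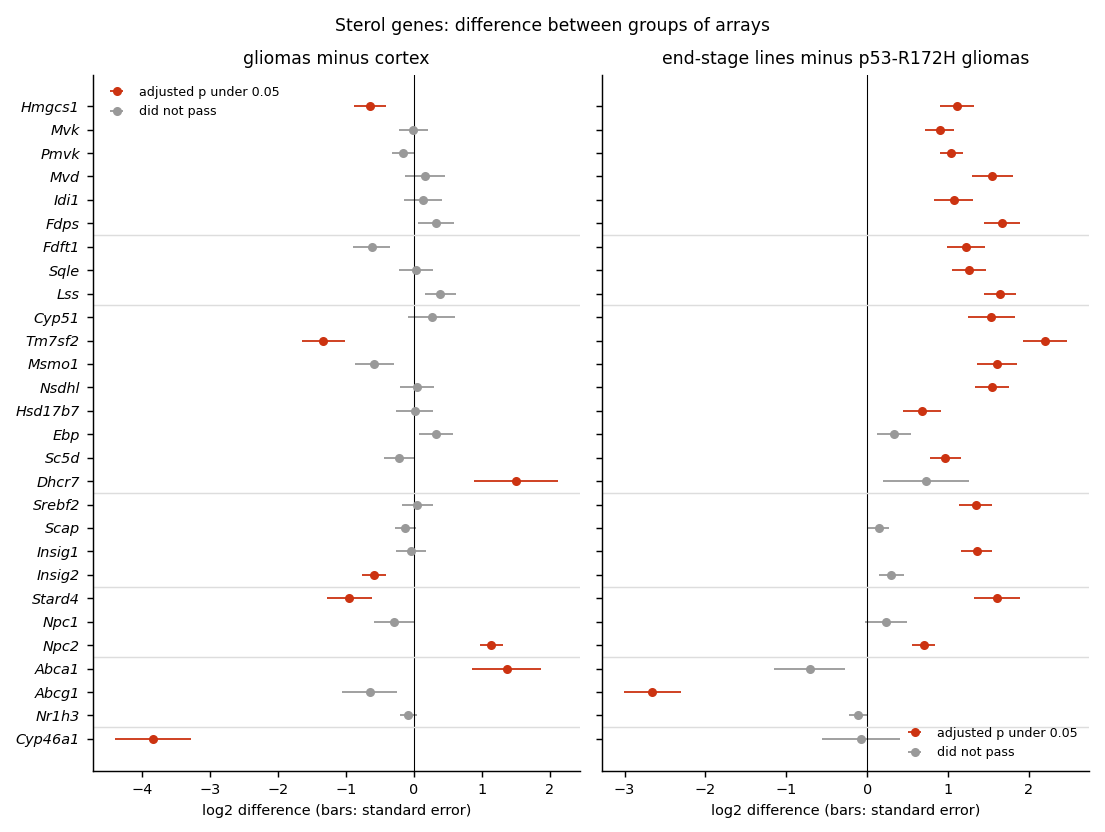
Log2 difference (horizontal axis) of each measured sterol gene between all 22 gliomas and cortex (left) and between end-stage lines and p53 R172H CKO gliomas (right), with bars of 1 standard error and red points for an adjusted p under 0.05 in limma. The synthesis enzymes, in the upper rows, lie on both sides of 0 on the left and to the right of 0 on the right.

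The 6 enzymes of the mevalonate branch were all higher in the lines, by log2 differences of 0.90 to 1.66. Hmgcs1 encodes the synthase that makes hydroxymethylglutaryl-CoA. Its log2 signal ran from 10.96 through a median of 11.56 to 12.19 in the R172H gliomas and from 11.98 through 12.59 to 13.71 in end-stage lines, a difference of 1.11 (standard error 0.21, adjusted p = 0.000218 in limma). The lowest line overlapped the 3 highest gliomas. Fdps, whose product makes farnesyl pyrophosphate, ran from 8.43 through 9.96 to 10.57 in the gliomas and from 10.00 through 11.63 to 12.40 in the lines, 1.66 higher (standard error 0.23, adjusted p = 1.13e-06). Mvk, the mevalonate kinase gene, differed by 0.90, Pmvk by 1.04, Idi1 by 1.07 and Mvd by 1.55.

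The squalene enzymes moved in the same direction, all 3 of them higher in the lines. Lss, which encodes the cyclase that closes the ring system of lanosterol, had a log2 signal from 7.15 through 7.92 to 8.74 in the gliomas and from 8.18 through 9.78 to 10.83 in the lines, 1.64 higher (standard error 0.20, adjusted p = 8.24e-08 in limma). Sqle encodes squalene epoxidase, a rate-controlling step. It ran from 8.96 through 9.88 to 10.51 in the gliomas and from 9.92 through 11.52 to 11.96 in the lines, a difference of 1.26. Fdft1, the squalene synthase gene, differed by 1.22. The lowest line for all 3 genes was that of array 51, and the highest that of array 59.

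Of the 8 enzymes between lanosterol and cholesterol, 6 were higher in the lines. The largest difference of any enzyme was that of Tm7sf2, a sterol reductase gene, at 2.20 (standard error 0.27, adjusted p = 1.54e-07 in limma). It ran from 4.68 through 6.41 to 7.47 in the gliomas and from 7.38 through 8.37 to 9.99 in the lines, and only 1 line and 1 glioma overlapped. Msmo1, the methylsterol monooxygenase gene, ran from 8.65 through 9.38 to 10.43 in the gliomas and from 9.88 through 11.29 to 12.08 in the lines, 1.61 higher. Nsdhl differed by 1.54, the lanosterol demethylase gene Cyp51 by 1.54, Sc5d by 0.96 and Hsd17b7 by 0.68, the last at an adjusted p of 0.0476 in limma. Over the alternatives the adjusted p of Hsd17b7 ran from 0.00756 to 0.676. Its call was lost with only the compared groups, cyclic loess or array weights, without the gliomas of arrays 38, 45 and 58, and in arrays 46 to 57 alone. The exceptions were Ebp (0.33, adjusted p = 0.317) and Dhcr7 (0.72, adjusted p = 0.392), the gene of the final reductase, which already varied from 7.80 to 12.43 among the gliomas.

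Among the regulators, the gene of the transcription factor and 1 of its 2 INSIG brakes were higher in the lines, and the escort was not. Srebf2 ran from 7.56 through 8.60 to 9.14 in the R172H gliomas and from 8.83 through 10.04 to 10.45 in end-stage lines, a difference of 1.34 (standard error 0.20, adjusted p = 6.66e-06 in limma). Insig1, which is itself an SREBP target, ran from 8.36 through 9.23 to 9.97 and from 9.29 through 10.63 to 11.09, 1.35 higher (adjusted p = 3.06e-06). Insig2 (0.30, adjusted p = 0.208) and Scap (0.14, adjusted p = 0.499) did not pass. Of the transport genes, Stard4, which encodes a soluble sterol carrier and is another SREBP target, was higher by 1.61, and Npc2, which unloads cholesterol in lysosomes, by 0.70. Its membrane partner Npc1 differed by 0.23 and did not pass.

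The export genes went the other way or were uneven. Abcg1 ran from 8.82 through 9.65 to 10.65 in the gliomas and from 5.19 through 6.79 to 9.23 in the lines, and was lower in the lines (log2 difference -2.66, standard error 0.35, adjusted p = 6.52e-07 in limma). Macrophages also express Abcg1, and all 12 microglia and macrophage markers were lower in the lines. Their part in this difference was not tested. Its second probe set differed by -1.59. Abca1 had the widest range of any member among the lines, from 7.47 through 10.28 to 12.21, against 8.79 through 11.06 to 12.07 in the gliomas (log2 difference -0.71, adjusted p = 0.295). Nr1h3, the gene of LXR alpha, lay at 4.67 to 5.68 in the lines, around the array medians. Cyp46a1, at 5.21 through 6.38 to 7.36 in the lines, differed by -0.07.

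**Figure D2:**
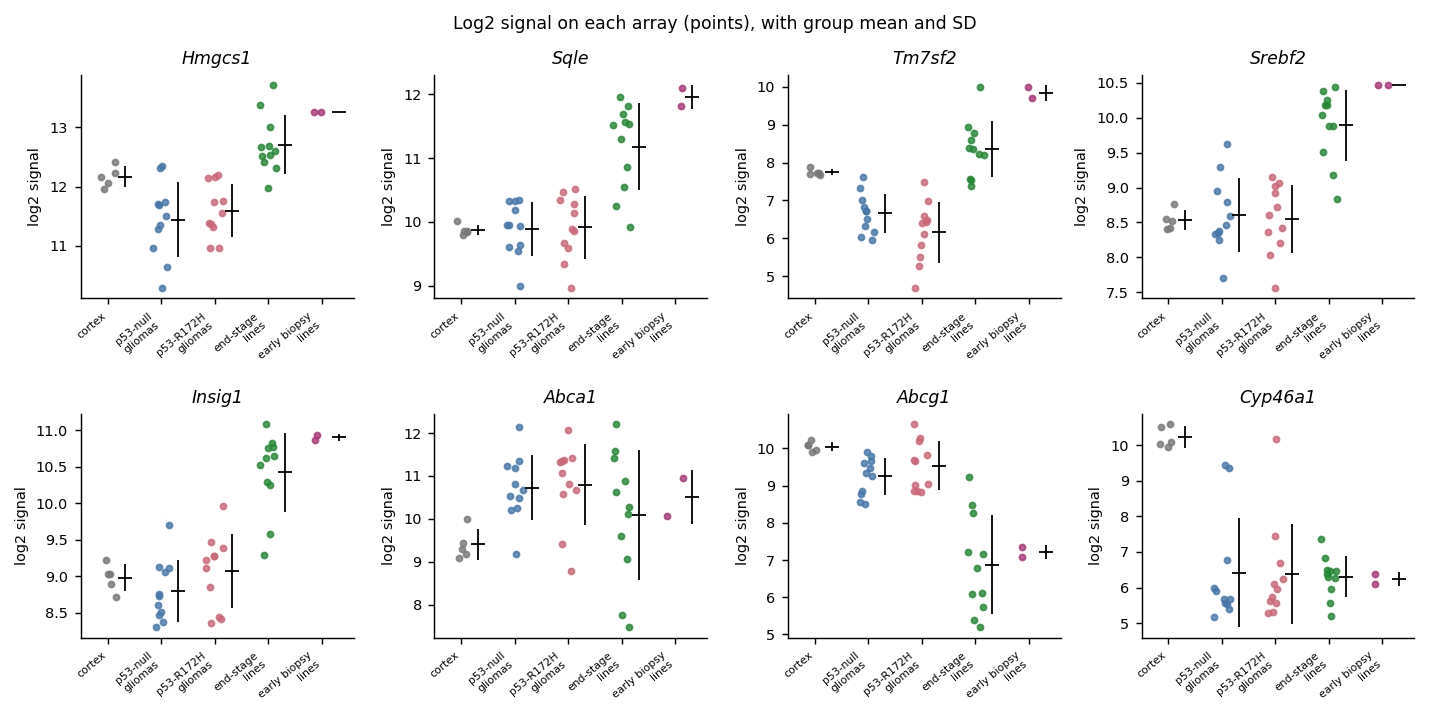
Log2 signal on each array (points) of 8 sterol genes in cortex, gliomas of both genotypes, end-stage lines and early biopsy lines, with mean and SD of each group drawn next to its points. Srebf2, Insig1, Sqle, Hmgcs1 and Tm7sf2 lie highest in the lines, Abcg1 lowest there, and Cyp46a1 is high in cortex and in 3 gliomas.

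The lines were not uniform, and their levels differed with the array number. The mean log2 signal of the 17 enzymes was 9.30, 9.86, 9.08 and 9.61 in the lines of arrays 47, 49, 51 and 53, the 4 lowest of the lines, and 10.26 to 11.06 in the 7 lines of arrays 55 to 68. The 11 cell cycle genes averaged 7.24 to 9.48 in the same 4 lines and 9.77 to 10.92 in the other 7. The p53 R172H CKO gliomas, whose array numbers alternate with those of the lines, showed no such step, with means of 8.57 to 9.32 for arrays 46 to 52 and 8.55 to 9.31 for arrays 54 to 67. With the lines and p53 R172H CKO gliomas of arrays 46 to 57 alone, 10 members were higher (7 of 17 enzymes, median 0.89), beside 1.51% of all genes. With those of arrays 58 to 69 alone, 20 were higher (16 of 17 enzymes, median 1.85), beside 4.23% of all genes, and Abca1 was lower (-1.89, adjusted p = 0.016 in limma) where the lower-numbered arrays gave 0.27 (adjusted p = 0.87). What the array numbers stand for is not in the labels, and their part in these levels was not tested.

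**Figure D3:**
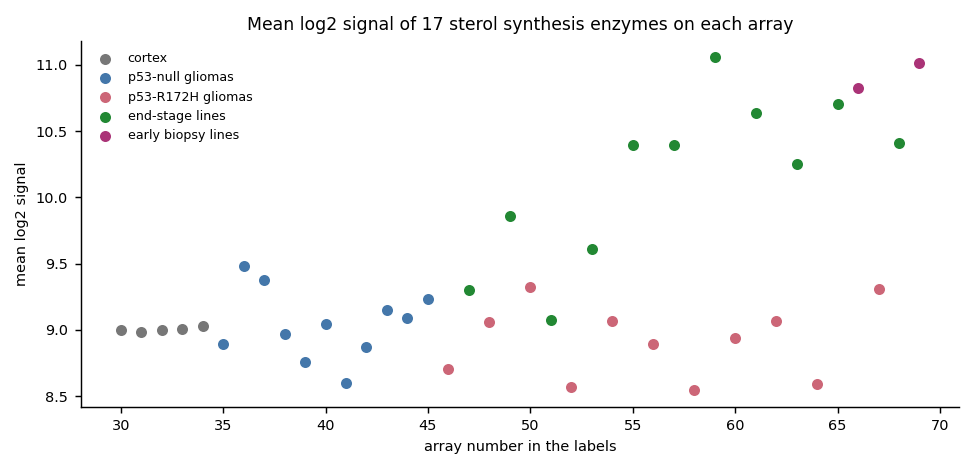
Mean log2 signal of 17 synthesis enzymes on each array (vertical axis) against the array number in the labels (horizontal axis), coloured by group. The end-stage lines lie between 9.08 and 9.86 at arrays 47 to 53 and between 10.26 and 11.06 at arrays 55 to 68, while the gliomas stay between 8.55 and 9.48.

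Because these genes moved together, the promoters of 6 of them are shown, 250 bases before to 50 bases after the transcription start in RefSeq (GRCm38.p6). Of the 28 measured members 22 had such a sequence, among them 14 of 17 enzymes. SREBP-2 is known to bind sterol regulatory elements weakly by itself and to act with NF-Y, which binds CCAAT boxes, and Sp1, which binds GGGCGG. Capitals mark the letters CCAAT, which read from the opposite strand appear as ATTGG, and, in Hmgcs1, a match to the element TCACNCCAC. Shown are the entry enzyme Hmgcs1 (chr13:119690101-119690400, plus strand), Msmo1 with 3 CCAAT boxes (chr8:64733529-64733828, minus strand) and the most raised enzyme gene Tm7sf2 (chr19:6067801-6068100, minus strand). Srebf2 (chr15:82147019-82147318, plus strand) and Insig1 (chr5:28071162-28071461, plus strand) follow. The exporter gene Abca1 (chr4:53159846-53160145, minus strand) is shown as a window without a capital. It does not stand for the members that were not higher in the lines, since 4 of those 7 held CCAAT.
Hmgcs1: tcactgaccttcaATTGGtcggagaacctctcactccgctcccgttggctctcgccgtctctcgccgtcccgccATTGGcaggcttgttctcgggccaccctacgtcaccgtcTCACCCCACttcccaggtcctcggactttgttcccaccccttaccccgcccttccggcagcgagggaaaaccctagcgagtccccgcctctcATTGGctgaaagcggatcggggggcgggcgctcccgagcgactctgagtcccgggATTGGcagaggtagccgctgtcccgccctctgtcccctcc
Msmo1: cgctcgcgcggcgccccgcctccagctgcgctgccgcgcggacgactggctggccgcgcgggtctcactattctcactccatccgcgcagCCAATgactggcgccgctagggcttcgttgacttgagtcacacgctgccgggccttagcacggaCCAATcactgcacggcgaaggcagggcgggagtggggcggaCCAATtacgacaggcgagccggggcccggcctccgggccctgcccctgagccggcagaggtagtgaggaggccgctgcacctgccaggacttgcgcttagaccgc
Tm7sf2: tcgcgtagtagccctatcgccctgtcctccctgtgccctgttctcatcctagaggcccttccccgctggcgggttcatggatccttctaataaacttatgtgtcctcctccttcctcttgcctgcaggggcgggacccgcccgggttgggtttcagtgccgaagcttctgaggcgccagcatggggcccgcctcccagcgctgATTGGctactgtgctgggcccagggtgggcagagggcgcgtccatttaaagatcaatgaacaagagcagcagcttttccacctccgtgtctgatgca
Srebf2: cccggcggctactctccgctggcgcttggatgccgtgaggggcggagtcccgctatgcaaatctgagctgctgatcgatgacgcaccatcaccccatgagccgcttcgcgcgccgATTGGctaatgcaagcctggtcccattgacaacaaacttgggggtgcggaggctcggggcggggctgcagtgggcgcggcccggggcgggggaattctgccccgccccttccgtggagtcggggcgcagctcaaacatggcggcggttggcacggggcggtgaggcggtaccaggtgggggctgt
Insig1: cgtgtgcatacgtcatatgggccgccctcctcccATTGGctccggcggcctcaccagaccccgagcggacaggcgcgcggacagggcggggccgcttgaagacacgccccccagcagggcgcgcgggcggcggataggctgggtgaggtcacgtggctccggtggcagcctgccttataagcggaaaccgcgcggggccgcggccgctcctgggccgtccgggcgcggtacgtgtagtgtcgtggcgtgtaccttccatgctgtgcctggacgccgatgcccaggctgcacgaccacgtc
Abca1: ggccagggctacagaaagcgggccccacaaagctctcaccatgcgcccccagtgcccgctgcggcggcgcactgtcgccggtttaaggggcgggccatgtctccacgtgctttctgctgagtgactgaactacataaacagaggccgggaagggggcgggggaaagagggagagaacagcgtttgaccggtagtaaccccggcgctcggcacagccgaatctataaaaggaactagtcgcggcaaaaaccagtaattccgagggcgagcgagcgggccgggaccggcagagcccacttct

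Read against all promoters, the letters CCAAT on either strand stood in the windows of 14 of 14 enzymes and of all 15 members that were higher in the lines and had a sequence, against 6070 of 14452 measured genes and 4 of the 7 other members. GGGCGG stood in 13 of 14 enzymes and 57.3% of measured genes. The E-box CACGTG stood in 3 of 14 enzymes and 10.2% of measured genes, and TCACNCCAC in Hmgcs1 alone and 1.46% of measured genes. Sterol regulatory elements that differ from TCACNCCAC by a letter were not counted, so a window without a match may still hold an element. The LXR element of direct repeats was searched only in 1 fixed spelling, which stood in 1 of 14452 measured genes and in none of the 22. LXR elements that differ from this spelling by a letter were not counted. So rare a match cannot show whether a window, that of Abca1 included, holds an LXR element. All motifs were searched on both strands, a gene with several starts counted as holding a motif when any of its windows did, and no CCAAT or TCACNCCAC match in the printed sequences overlaps a match of another motif. These are matches of letters, and no binding was measured.

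Across the 11 end-stage lines the enzymes varied as a block. The mean pairwise Pearson correlation of the 17 enzymes was 0.78, and all 136 pairs were positive, against a mean of 0.01 over pairs of all genes. It was 0.28 among p53 R172H CKO gliomas and 0.21 among p53 null CKO gliomas. Fdft1 followed the mean of the other enzymes most closely (r = 0.998 over 11 lines) and Dhcr7 least (r = 0.61). Outside the enzymes, Stard4 (r = 0.90), Srebf2 (r = 0.84) and Insig1 (r = 0.73) followed the enzymes, Npc1 (r = 0.05) and Scap (r = -0.33) did not, and Abca1 ran against them (r = -0.73). In the line of array 59 the enzyme mean was the highest, 11.06, and Abca1 the lowest, 7.47, and in that of array 51 the enzyme mean was the lowest, 9.08, and Abca1 the highest, 12.21. The genes outside the members most like the enzyme mean, of 9096 bright enough to rank, were Homer1 (r = 0.93), Dck (r = 0.93), Gbe1 (r = 0.92), Ywhah (r = 0.91) and Prc1 (r = 0.89). The same 11 lines, with their common step in array number and cell cycle level, stand behind each of these values.

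**Figure D4:**
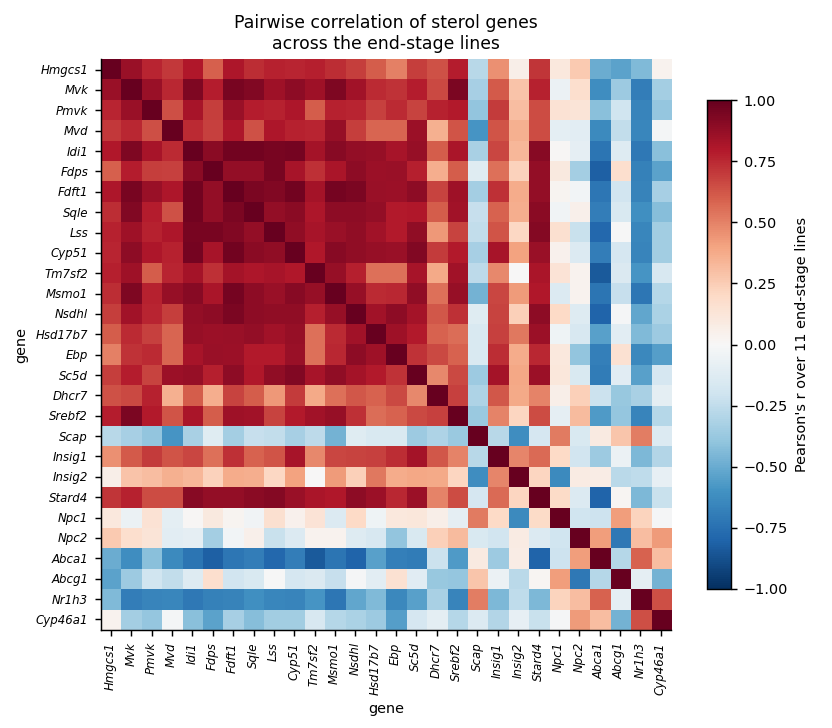
Pearson correlation of each pair of sterol genes over the 11 end-stage lines, from -1 (blue) to 1 (red). The enzymes, Srebf2, Insig1 and Stard4 form a red block, and the rows of Abca1 and Nr1h3 are mostly blue against it.

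Compared with normal cortex, the gliomas showed no common shift of the pathway. Over all 22 gliomas 3 members were higher and 5 were lower (22.6% and 24.7% of all genes in limma), and the median log2 difference was -0.03 over the members as over all genes. Of the 17 enzymes 1 was higher and 2 were lower (median 0.03, and -0.20 with cyclic loess normalization, against -0.06 over all genes). The largest enzyme difference downward was that of Tm7sf2. It was 7.73, 7.71, 7.73, 7.89 and 7.68 in the cortices of arrays 30 to 34, 5.95 through 6.71 to 7.61 in p53 null CKO gliomas and 4.68 through 6.41 to 7.47 in p53 R172H CKO gliomas. Every glioma lay below every cortex, as in 3.59% of all genes (3.91% and 0 members lay wholly above), with a log2 difference of -1.34 (standard error 0.32, adjusted p = 0.00059 in limma). Hmgcs1 was lower (log2 difference -0.65, adjusted p = 0.0242 in limma). This call was lost without the cortex of array 31 or that of array 33. It was also lost against the Cre-positive cortices alone and with the mean of its probe sets (adjusted p up to 0.48 over these settings).

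Dhcr7, whose loss in humans causes Smith-Lemli-Opitz syndrome, was higher in the gliomas on average, with overlap. It was 8.38, 8.20, 8.31, 7.77 and 8.65 in the cortices of arrays 30 to 34, 7.65 through 9.33 to 11.19 in p53 null CKO gliomas and 7.80 through 10.02 to 12.43 in p53 R172H CKO gliomas. The mean difference of 1.498 (standard error 0.62, adjusted p = 0.0445 in limma) passed narrowly, and the call was kept in 6 of 15 alternatives. It was lost without any 1 of the cortices (adjusted p from 0.0586 to 0.108). Only the compared groups, cyclic loess, only the Cre-positive cortices, and leaving out the gliomas of arrays 38, 45 and 58 lost it too (adjusted p up to 0.151). Of the regulators, only Insig2 passed, at -0.59 (adjusted p = 0.00667). Srebf2 differed by 0.05 on its brighter probe set and by -1.05 on the other, so its direction between gliomas and cortex is not settled. Insig1 differed by -0.05.

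In the transport group, Npc2 was higher in gliomas and Stard4 lower. Npc2 was 11.14, 10.67, 10.81, 10.64 and 11.11 in the cortices of arrays 30 to 34 and had a median of 12.09 in p53 null CKO and 11.97 in R172H gliomas, 1.13 higher in the mean log2 signal (standard error 0.17, adjusted p = 1.13e-06 in limma). The p53 R172H CKO gliomas of arrays 50 and 58, both at 10.99, lay within the range of the cortices. Stard4 had a log2 difference of -0.96 (adjusted p = 0.0156), lost without the cortex of array 30 (adjusted p = 0.0576). Abca1, at 9.30, 9.09, 9.19, 9.44 and 9.99 in the cortices, had medians of 10.68 and 11.06 in the gliomas (log2 difference 1.36, adjusted p = 0.026), and this call was lost without the cortex of array 30, 31 or 32, with the mean of its probe sets (log2 difference 0.90), after cyclic loess, and against the Cre-positive cortices alone (adjusted p from 0.0537 to 0.0874). Macrophages express Abca1 and Npc2 too, and 9 of 12 microglia and macrophage markers were higher in the gliomas than in cortex (median 1.74). In the end-stage lines, where these markers were lower than in the gliomas, Npc2 was at a median of 12.65 and Abca1 at one of 10.28. Levels in cultured lines cannot show which cells of a glioma gave its signal, and the part of macrophages in both differences was not tested.

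The neuronal hydroxylase gene Cyp46a1 showed the largest difference of any member. It was 9.95, 10.52, 10.10, 10.60 and 10.03 in the cortices of arrays 30 to 34, 5.18 through 5.68 to 9.44 in p53 null CKO gliomas and 5.28 through 5.97 to 10.18 in p53 R172H CKO gliomas. The log2 difference was -3.85 (standard error 0.56, adjusted p = 8.92e-07 in limma). The gliomas of arrays 38, 45 and 58 stood apart at 9.44, 9.37 and 10.18. They are the gliomas in which the neuron markers were near the cortices, and without them the difference was -4.37. All 10 neuron markers were lower in the gliomas (median -4.16), and the part of neurons in the Cyp46a1 difference was not tested.

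Between the genotypes no member passed the test. Of 28 members 0 were higher and 0 lower in R172H than in null gliomas by limma, where 0% of all genes were higher and 0.033% lower. At an unadjusted p under 0.05 there was 1 member, Nr1h3 at -0.31, by limma, beside 6.09% of all genes lower. The methods' t-test gave 1 lower member unadjusted and 0 adjusted. For the unadjusted count the share of all genes is not given, so it is not read as a result about the members. The median log2 difference of the enzymes was -0.17, against 0.00 over all genes, and single enzymes lay between -0.50 for Tm7sf2 and 0.57 for Dhcr7. Srebf2 averaged 8.61 ± 0.53 (SD, n = 11) among null gliomas against 8.55 ± 0.49 (SD, n = 11) in the R172H group, while Insig1 (0.27), Abca1 (0.07) and Cyp46a1 (-0.04) did not pass either. The p53 null CKO gliomas hold array numbers 35 to 45 and the p53 R172H CKO gliomas later ones, from 46 to 67, so genotype and array order cannot be told apart.

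Set against cortex instead of glioma, the lines were also high in this pathway. Of 28 members 15 were higher and 3 lower (25.5% and 24.3% of all genes in limma), and 12 of 17 enzymes were higher, with a median log2 difference of 0.92 (0.52 with cyclic loess, against -0.08 over all genes). Pmvk, Mvd, Fdps, Lss, Cyp51, Dhcr7, Srebf2, Insig1 and Npc2 were higher in every line than in any cortex, 9 of 28 members beside 16.1% of all genes. Lss was 7.53, 7.58, 7.67, 7.79 and 7.75 in the cortices of arrays 30 to 34, 1.92 below the mean of the lines, and Fdps was 9.66, 9.57, 9.65, 9.62 and 9.76, 1.89 below it. Dhcr7 differed by 2.51, Insig1 by 1.44 and Srebf2, on its brighter probe set, by 1.36. The other Srebf2 probe set averaged 8.88 in cortex and 8.77 in the lines, so the rise rests on the brighter probe set. The Srebf2 call was kept in all 14 alternatives (log2 difference 0.62 to 1.42). Apart from the mean of probe sets, these use the brighter probe set, so they cannot settle the conflict between the probe sets. Sc5d, among the higher enzymes, averaged 9.04 and 5.81 in cortex and 8.72 and 5.45 in the lines on its dimmer probe sets. Its call was lost with the mean of probe sets, cyclic loess or only the Cre-positive cortices. The call of Msmo1 was lost with cyclic loess or only the Cre-positive cortices (adjusted p up to 0.179 in limma). That of Mvk was lost with cyclic loess (adjusted p = 0.086 in limma). In the other direction, Hmgcs1, Fdft1, Tm7sf2, Hsd17b7 and Ebp, not called in the main fit, passed with array weights. Abca1 differed by 0.69 and did not pass (adjusted p = 0.318). Tm7sf2, the enzyme gene that differed most from the gliomas, was 0.61 above cortex and did not pass (adjusted p = 0.138). Abcg1, at 10.10, 9.90, 10.09, 9.94 and 10.21 in the cortices (log2 difference -3.17), and Cyp46a1 (-3.94) were lower in every line than in any cortex, beside 15.2% of all genes, and Nr1h3 was lower (log2 difference -0.36, adjusted p = 0.0285 in limma). The call of Nr1h3, which lay near the array medians, was lost without the cortex of array 31, 33 or 34 and with only the Cre-positive cortices (adjusted p up to 0.153). All 11 cell cycle genes were higher and all 10 neuron markers lower in the lines than in cortex, and their part in these differences was not tested.

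The lines of early biopsies lay toward the top of the range of the end-stage lines, but no member passed the test. By limma 0 of 28 members were higher and 0 lower, as were 0% of all genes, and 5 members had an unadjusted p under 0.05 (Mvk, Tm7sf2, Sc5d, Msmo1 and Sqle, all higher, beside 1.05% of all genes). The methods' t-test gave 2 higher members unadjusted and 0 adjusted. For this unadjusted count the share of all genes is not given, so it is not read as a result about the members. All 17 enzymes had a log2 difference above 0, beside 43.9% of all genes, with a median of 0.77 against -0.04 over all genes. For 14 of 17 enzymes both early biopsy lines were above the median of the end-stage lines, beside 24% of all genes.

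Tm7sf2 was 9.69 and 9.99 in the early biopsy lines of arrays 66 and 69, against 7.38 through 8.37 to 9.99 in the end-stage lines, a difference of 1.48 (adjusted p = 0.999988 in limma, and p = 0.0256 in an exact two-sided permutation test over 78 arrangements). It was the only member of 28 with an exact p under 0.05, and with Benjamini-Hochberg adjustment over the 28 members its permutation p was 0.449. The permutation test was run on the members only, so no share of all genes stands beside it. Mvk was 9.35 and 9.78, above every end-stage line (7.41 through 8.66 to 9.32), with an exact permutation p of 0.0513. Srebf2 was 10.47 in both, also above every end-stage line (8.83 through 10.04 to 10.45), as 0.83% of all genes were, and no member lay below every end-stage line, as 1.18% of all genes did. In every enzyme but Mvk, at least 1 early biopsy line lay inside the range of the end-stage lines. Msmo1 was 11.81 and 12.49 against 9.88 through 11.29 to 12.08. Sqle was 11.82 and 12.09 against 9.92 through 11.52 to 11.96, and Sc5d was 10.68 and 11.06 against 8.88 through 9.99 to 11.07. Dhcr7 was 12.94 and 11.32 against 8.76 through 10.76 to 13.23, within the range of the end-stage lines. Insig1 (10.87 and 10.94), Cyp46a1 (6.10 and 6.38), Abca1 (10.95 and 10.06) and Abcg1 (7.35 and 7.09) lay inside the ranges of the end-stage lines as well.

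The size of this offset depends on which end-stage lines it is measured against. The mean of the 17 enzymes was 10.82 and 11.02 in the early biopsy lines, above 9.08 to 9.86 in the lines of arrays 47 to 53 and within 10.26 to 11.06 in those of arrays 55 to 68. Against the end-stage lines of arrays 58 to 68 alone, whose numbers adjoin those of the early biopsy lines, 15 of 17 enzymes were above 0 with a median of 0.28, beside 48.2% of all genes. The cell cycle genes had a median difference of 0.65 between early biopsy and end-stage lines and the astrocyte markers one of 0.72, with 0 of 11 and 0 of 10 passing the test.

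**Figure D5:**
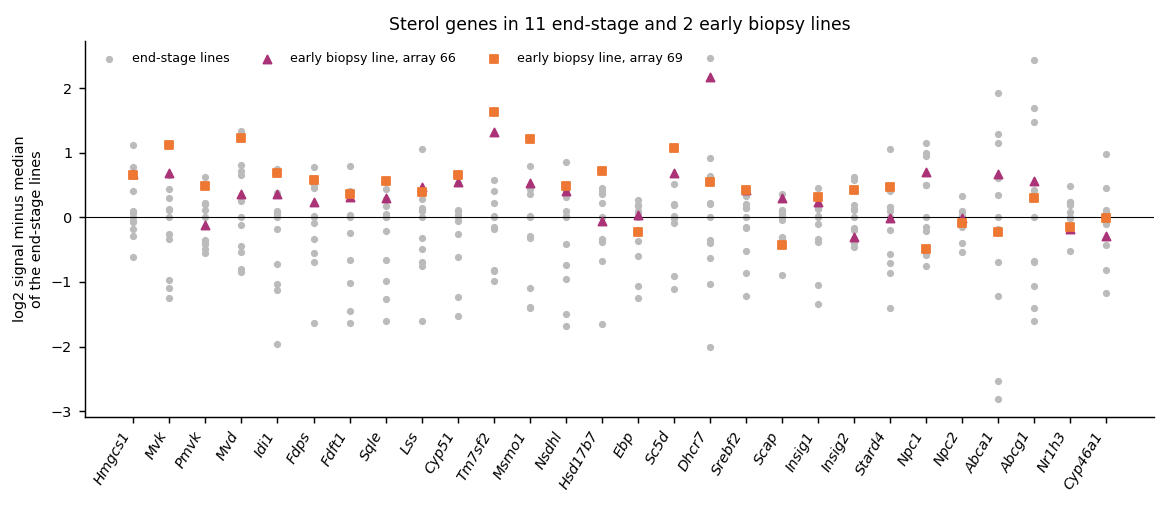
Log2 signal of each sterol gene minus the median of the 11 end-stage lines (vertical axis), for the end-stage lines (grey) and the early biopsy lines of array 66 (triangles) and array 69 (squares). Most enzymes of both early biopsy lines lie above 0 and inside the spread of the grey points, and Mvk and Srebf2 lie above all of them.

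Other genes of sterol metabolism, 28 measured of 29 listed, were counted in the same comparisons. In end-stage lines against p53 R172H CKO gliomas 6 were higher and 3 lower in limma, beside 7.24% and 6.43% of all genes, with a median log2 difference of 0.12 over the 28. The lipoprotein receptor gene Scarb1 (1.54), Tmem97 (1.27), whose product is a regulator of NPC1, and Vldlr (0.88), a receptor gene, were higher, and the cholesterol 25-hydroxylase gene Ch25h (-1.47), Mylip (-1.04), an LXR target whose product degrades lipoprotein receptors, and Gramd1b (-1.04) were lower. In gliomas against cortex 7 were higher and 6 lower, where 22.6% and 24.7% of all genes were, so these counts were near the background. They were led by Lbr (2.13), Ch25h (1.72) and Scarb1 (1.57) and by Abcg4 (-2.66), Gramd1b (-1.86) and Nceh1 (-1.77). Ch25h averaged 4.24 in the end-stage lines and 4.62 in cortex, below the array medians of 5.24 to 5.47. There low expression and no expression look alike, and the part of stroma in its differences was not tested. Lbr encodes a sterol reductase with the same reaction as Tm7sf2, which was lower in those gliomas. In lines against cortex 12 were higher and 6 lower, beside 25.5% and 24.3% of all genes, and between the genotypes and between early biopsy and end-stage lines 0 passed.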

How the data were processed

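Total RNA of mouse cortex, gliomas and glioma lines was hybridized to Affymetrix Mouse Genome arrays, 1 per sample. The deposited values are log2 signals that the authors made by robust multi-array average, with background correction and quantile normalization. Their base was read from the range of the values (2.00 to 14.47). Of 45101 probe sets, 34945 named 1 gene in the platform annotation, 932 named several and 9160 were not in it, and 34741 of the first were matched to RefSeq (GRCm38.p6). Each of 18193 genes was represented by the probe set with the highest mean, and signals were not compared between probe sets.

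One limma model (limma 3.58.1, R 4.3.3) was fitted to 5 groups and 18193 genes, with empirical Bayes moderation and Benjamini-Hochberg adjustment over all genes, and genes with an adjusted p under 0.05 were called. In the contrast of gliomas with cortex both genotypes had equal weight. The fit was tested on simulated data. Figures were drawn with matplotlib 3.10.9 in Python 3.11.15 with pandas 2.3.3. The methods' t-test, run as an alternative, is unpaired and two-tailed. Other alternatives were the mean of probe sets, removal of cross-hybridizing probe sets or dim genes, only the compared groups, cyclic loess, array weights, another moderation, only Cre-positive cortices, and fits without single arrays or sets of arrays.

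The members and lists were chosen with earlier results of these data known. Values by sample are given for the 5 called members with the largest absolute log2 difference per comparison (for early biopsy lines, the 5 with the largest moderated statistic), Srebf2, Insig1, Abca1 and Cyp46a1 are given in every comparison, the 3 other sterol genes with the largest change in each direction are named, and the 5 genes most like the enzymes are named. Other named genes were chosen after their values were seen. The number of arrays limits the precision.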

Additional observations from a re-analysis of the deposited data

Results flagged for a closer look

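Among the 5 cortices, 3 of 28 members had 1 array whose gap to its nearest neighbour took up most of the range of the group. They were Idi1 on array 34 (log2 signal 9.60), Sqle on array 33 (10.02) and Tm7sf2 on array 33 (7.89). By chance about 1 in 20 such groups is singled out in this way.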

How the results depend on the processing

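Beside 3 members higher in gliomas than in cortex, cyclic loess and only the Cre-positive cortices gave 1 and array quality weights gave 5, and fits without 1 cortex gave 1 to 2. Beside 5 lower, the mean of probe sets, only the compared groups, cyclic loess and the methods' t-test unadjusted gave 8 each. Between the genotypes the methods' t-test unadjusted gave 1 lower, and for early biopsy against end-stage lines 2 higher. The fits on part of the array numbers and without array 51 were chosen after seeing the data. Against p53 R172H CKO gliomas, the lines of arrays 46 to 57 gave 10 higher members, beside 1.51% of all genes, and those of arrays 58 to 69 gave 2 lower. For the other counts of this section the share of all genes under the same setting is not given. In the main fit 22.6% of all genes were higher in gliomas than in cortex and 24.7% lower. These counts are therefore not read as results about the members. In gliomas against cortex, Srebf2 turned to -0.50 with the mean of probe sets and -0.19 with cyclic loess, and Insig1 to 0.022 with array weights, 0.014 without cortex 30 (-0.11 to 0.014 over the cortices left out in turn) and 0.0067 without the gliomas of arrays 38, 45 and 58. Between the genotypes, Abca1 turned to -0.083 with the mean of probe sets and -0.035 without those gliomas, and Cyp46a1 to 0.082 with array weights and 0.25 without them. In lines against p53 R172H CKO gliomas, Cyp46a1 turned to 0.13 with array weights, 0.31 without those gliomas and 0.48 in arrays 46 to 57, and Abca1 to 0.27 in arrays 46 to 57. In early biopsy against end-stage lines, Abca1 turned to -0.028 and Cyp46a1 to 0.072 without the early line of array 66 (0.86 and -0.20 without that of array 69), and Cyp46a1 to 0.039 without array 51. Of the counts over the members, 128 alternatives stayed within 1.5 times and 14 did not. The causes were not tested. No paired analysis was possible because the labels do not say which line came from which tumor, although both came from the same tumors, and no array number is shared between groups.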
